A study of Mus musculus with 8 samples.

Results

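Fatty acid and triglyceride synthesis genes were followed in the liver of a mouse model of primary Sjögren's syndrome. The group comprised 30 genes, listed by symbol, that cover the supply of precursors, the building, elongation and desaturation of fatty acids, their assembly into triglyceride, and regulators and droplet proteins of the pathway. Every probe carrying a member's symbol was taken, which gave 70 probes of the 56605 on the array, and no older symbol had to be updated for them. The brightest probe that passed the filter on dim probes stood for each gene, and all 30 members had one among the 16495 genes tested. RNA of female NFS/sld mice was measured on 8 one-colour Agilent arrays, each labelled from 0.5 µg of RNA. The Tx group was 4 livers of females whose thymus had been removed on day 3 after birth, taken 8 weeks after surgery. The nonTx group was 4 livers of females of that strain with no thymectomy. The labels mention no sham operation, do not give the nonTx age separately and name neither the hour of sampling nor the feeding state. They call the 4 replicates of each group independent but do not say that each was 1 animal, so the p-values cover only sample-to-sample spread, which may be technical. In whole liver RNA, fewer cells of a type and less RNA per cell cannot be told apart.

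Hepatocytes make fatty acids from citrate that is exported from mitochondria and cleaved to acetyl-CoA in the cytosol. Acetyl-CoA carboxylase turns acetyl-CoA into malonyl-CoA, fatty acid synthase joins these units into palmitate, and elongases and desaturases shape the product before it is esterified to glycerol. In liver the pathway is known to be driven after feeding by insulin through SREBP-1c, the product of Srebf1, and by glucose through ChREBP, the product of Mlxipl, and it is low in fasting.

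Most members were measured slightly higher in Tx, but by its brightest probe none was separated from its spread. By their brightest probe 25 of 30 members had a higher mean in Tx and the median log2 difference was 0.24, where 56.3% of all tested genes were higher, with a median of 0.03. No member passed an adjusted p of 0.05 (limma, Benjamini-Hochberg over 30955 probes), and the smallest among the members was 0.319, for Acss2. The background was also 0 of 30955 probes, or 0%, with a smallest adjusted p of 0.0577 and 4085 probes at an unadjusted p below 0.05. At that unadjusted level 5 members were higher (Slc25a1, Acss2, Acacb, Fads1 and Mlxipl) and 0 lower by their brightest probes. The background by gene was 8.65% higher and 5.25% lower. Over all 66 tested member probes 11 were higher and 4 lower, where 4085 of all 30955 probes had such a p in either direction. By its brightest probe no member had all 4 Tx arrays above or below all 4 nonTx arrays. By gene this was the case for 5.11% of all genes (Tx above) and 2.94% (Tx below). Dimmer probes of Fads1, Fads2, Lpin2 and Mlxipl were without overlap, as given further below. The count of higher members moved with the scaling: it was 20 after quantile normalization (48.5% of all genes higher), 28 after scaling to the array median (72.2%) and 19 with no scaling (25.6%). The median log2 difference was 0.15 without Tx replicate 3 and 0.16 without nonTx replicate 1.

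**Figure D1:**
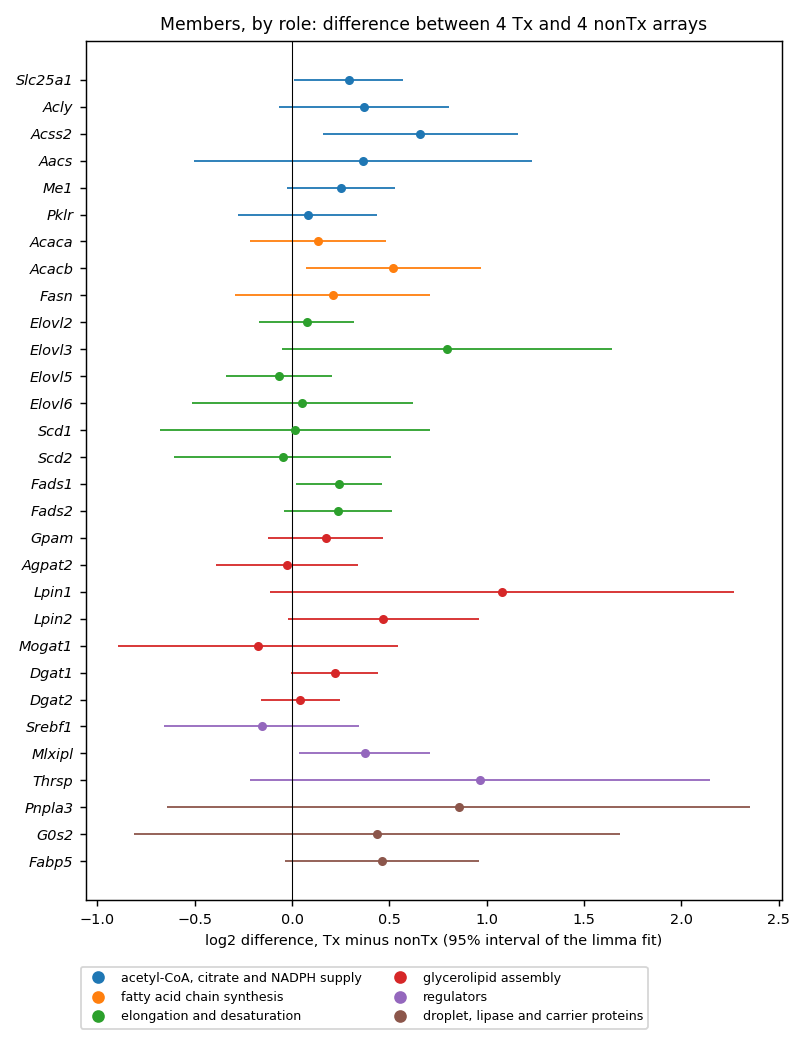
Log2 difference between the 4 Tx and the 4 nonTx arrays (x axis) for each of 30 members (y axis), coloured by role, with the 95% interval of the limma fit as bars. For 25 members the point lies to the right of 0, the largest being Lpin1 at 1.08, and for 25 members the difference is below 1.5-fold in size.

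The 6 genes of acetyl-CoA, citrate and NADPH supply all had a higher mean in Tx, and their median log2 difference was 0.33. Acss2, which makes cytosolic acetyl-CoA from acetate, had relative signals of 13.0, 18.2, 18.4 and 12.9 on nonTx replicates 1 to 4 and of 23.1, 16.5, 36.9 and 25.1 on the Tx ones. Relative signal is the multiple of the array's 75th percentile. Tx replicate 3 was the highest of the 8, and Tx replicate 2 lay within the nonTx range. The log2 difference was 0.66 ± 0.23 (SE, n = 4 against 4), with a limma adjusted p of 0.319. Acly, the ATP citrate lyase that releases acetyl-CoA from citrate, gave 39.7, 56.7, 64.3 and 58.7 in nonTx and 67.0, 51.2, 95.3 and 72.4 in Tx. Its groups overlapped through Tx replicate 2 alone, which lay below 3 of the nonTx arrays, and the log2 difference was 0.37 ± 0.20. Slc25a1, the mitochondrial citrate carrier, gave 25.5, 23.8, 26.6 and 22.7 in nonTx and 28.3, 24.4, 37.2 and 32.0 in Tx. Its log2 difference was 0.29 ± 0.13 (limma adjusted p = 0.366). Malic enzyme Me1, which yields NADPH, was similar in pattern, at 21.9 to 25.6 in nonTx and 23.3 to 35.9 in Tx, with a log2 difference of 0.25 ± 0.12. Aacs, which activates acetoacetate in the cytosol, ranged from 7.45 to 17.7 in nonTx and from 7.51 to 26.5 in Tx, so its log2 difference of 0.36 ± 0.39 was smaller than its error. Pklr, the liver pyruvate kinase, was at 1.09 to 1.21 in nonTx and at 0.969 to 1.71 in Tx (log2 difference 0.08 ± 0.16), and the sign turned without Tx replicate 3 (-0.08) and with no scaling (-0.08).

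Among the 3 enzymes of chain synthesis the carboxylase that sits at mitochondria stood furthest from 0. Acacb, whose malonyl-CoA restrains the import of fatty acids into mitochondria, gave 6.85, 10.2, 7.51 and 6.02 in nonTx and 13.3, 7.45, 11.9 and 11.4 in Tx. Tx replicate 2 was again inside the nonTx range, while the other 3 Tx arrays were above all nonTx arrays. The log2 difference was 0.52 ± 0.20 (limma adjusted p = 0.344). Acaca, the cytosolic acetyl-CoA carboxylase, spanned 14.5 to 21.4 in nonTx and 15.4 to 24.9 in Tx, a log2 difference of 0.13 ± 0.16 that was -0.03 with no scaling. Fasn, the fatty acid synthase itself, gave 102, 148, 170 and 180 in nonTx and 163, 128, 253 and 156 in Tx. Only Tx replicate 3 lay above the nonTx range, and the log2 difference of 0.21 ± 0.22 was smaller than its error.

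**Figure D2:**
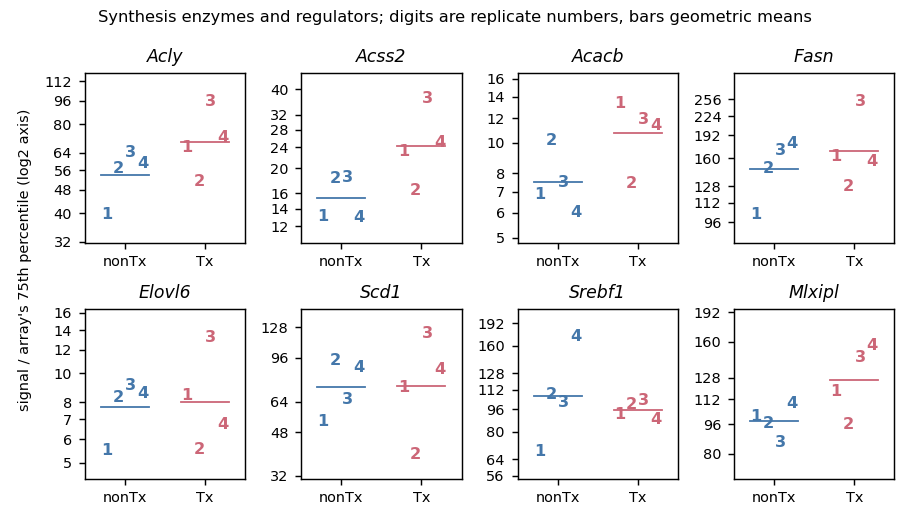
Relative signal (multiple of the array's 75th percentile, log2 axis) of 8 synthesis enzymes and regulators in nonTx and Tx, where each digit is the replicate number of an array and each bar is the group's geometric mean. The groups overlap in every panel. Tx replicate 3 is the highest array for Acly, Acss2, Fasn, Elovl6 and Scd1, and the 4 Tx arrays of Srebf1 lie close together within the nonTx range.

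The elongases and desaturases showed the smallest shift, where 6 of 8 were higher in Tx and the median log2 difference was 0.06. Scd1, the main liver desaturase that makes oleate from stearate, gave 52.9, 94.0, 65.4 and 87.6 in nonTx and 73.0, 39.0, 121 and 86.1 in Tx. The lowest and the highest of its 8 arrays were both Tx, and the log2 difference was 0.01 ± 0.31, with a 95% interval from -0.68 to 0.71. Its sign turned under several settings, among them quantile normalization (-0.16), no scaling (-0.14) and leaving out nonTx replicate 1 (-0.14) or Tx replicate 3 (-0.22). Elovl6, which extends palmitate to stearate, gave 5.51, 8.28, 9.09 and 8.56 in nonTx and 8.43, 5.51, 13.2 and 6.72 in Tx, again with Tx replicate 3 highest. Its log2 difference was 0.05 ± 0.25, and it was -0.02 under quantile normalization, -0.10 with no scaling, -0.06 after normexp background correction, -0.11 without nonTx replicate 1 and -0.19 without Tx replicate 3. Elovl3, an elongase of long saturated chains, gave 0.701, 0.584, 0.433 and 0.203 in nonTx and 0.469, 1.14, 0.711 and 0.857 in Tx. The lowest array was nonTx replicate 4 and the highest Tx replicate 2, and the log2 difference was 0.80 ± 0.38 (limma adjusted p = 0.395).

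The remaining genes of that role differed little. The desaturases of polyunsaturated fatty acids were close to each other, at a log2 difference of 0.24 ± 0.10 for Fads1 (limma adjusted p = 0.358) and of 0.24 ± 0.12 for Fads2. Fads1 gave 20.9, 23.4, 25.7 and 24.3 in nonTx and 27.7, 24.5, 31.6 and 27.7 in Tx, so 3 Tx arrays were above the nonTx range. Elovl2 and Elovl5, elongases of polyunsaturated chains, had log2 differences of 0.07 ± 0.11 and -0.07 ± 0.12. For Elovl2 the sign was negative under quantile normalization (-0.08), with no scaling (-0.08) and without Tx replicate 1 (-0.01), and for Elovl5 it was positive under median scaling (0.03). Scd2, a desaturase found mainly in other tissues such as brain, had a log2 difference of -0.05 ± 0.25, which was 0.12 without nonTx replicate 4, 0.14 without Tx replicate 4, 0.05 under median scaling and 0.03 after normexp background correction.

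In glycerolipid assembly 5 of 7 genes were higher in Tx (median log2 difference 0.17), and by their brightest probes the lipins had the largest log2 differences of the 7. Lpin1, a phosphatidate phosphatase that makes diacylglycerol and also acts as a coactivator, gave 2.30, 3.33, 6.99 and 13.2 in nonTx and 23.9, 9.81, 7.87 and 7.65 in Tx. All 4 Tx arrays were above 3 of the nonTx arrays, and nonTx replicate 4 lay above 3 of the Tx arrays. Its nonTx values spanned 5.77-fold, and the log2 difference of 1.08 ± 0.53 had an adjusted p of 0.404 (limma). Lpin2, the other main liver lipin, gave 20.0, 25.7, 35.9 and 29.9 in nonTx and 57.5, 31.0, 33.8 and 33.8 in Tx. Tx replicate 1 stood far above the others of its group, and the log2 difference was 0.47 ± 0.22. The direction of Lpin2 depended on the probe: 4 of its 7 tested probes were lower in Tx, and averaged probes gave -0.36. Dgat1, an acyltransferase of the last step of triglyceride synthesis, was at 1.77 to 2.10 in nonTx and at 2.05 to 2.54 in Tx (log2 difference 0.22 ± 0.10, limma adjusted p = 0.385). Dgat2, which serves that step for newly made fatty acids, was at 216 to 263 and at 224 to 258, with a log2 difference of 0.04 ± 0.09 that was -0.11 under quantile normalization and with no scaling. The interval of that difference, from -0.16 to 0.25, was the narrowest among the members.

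The acyltransferases of the earlier steps differed by less than their errors or little more. Gpam, the mitochondrial glycerol-3-phosphate acyltransferase, was at 48.4 to 71.7 in nonTx and 58.6 to 78.3 in Tx (log2 difference 0.17 ± 0.13, and -0.003 under quantile normalization). For Agpat2, which adds the next acyl chain, the log2 difference was -0.03 ± 0.16, and it was 0.14 without Tx replicate 1, 0.02 without nonTx replicate 4 and 0.07 under median scaling. Mogat1, a monoacylglycerol acyltransferase that is low in normal liver, was at 0.320 to 0.686 in nonTx and 0.232 to 0.574 in Tx. Its log2 difference of -0.18 ± 0.32 was 0.12 without Tx replicate 1, the lowest of the 8 arrays.

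The regulators did not share a direction. Srebf1, which encodes the insulin-responsive factor SREBP-1c, gave 68.4, 108, 101 and 172 in nonTx and 92.0, 99.7, 103 and 88.5 in Tx. Its 4 Tx arrays lay within 1.16-fold of each other and inside the 2.52-fold range of the nonTx arrays, which replicate 1 and replicate 4 bounded. The log2 difference was -0.16 ± 0.22, and 0.07 without nonTx replicate 4. Mlxipl, which encodes the glucose-responsive factor ChREBP, gave 101, 96.4, 85.7 and 109 in nonTx and 118, 96.0, 145 and 156 in Tx. Tx replicates 1, 3 and 4 lay above all nonTx arrays and replicate 2 within their range, and the log2 difference was 0.37 ± 0.15 (limma adjusted p = 0.354). The direction of Mlxipl also depended on the probe, since another probe was at -0.55 with all Tx arrays below all nonTx arrays, and averaged probes gave -0.07. Thrsp, or Spot 14, a thyroid hormone- and carbohydrate-responsive protein of lipogenic tissues, gave 14.7, 48.5, 71.6 and 97.9 in nonTx and 156, 74.0, 110 and 57.0 in Tx. Its nonTx values spanned 6.64-fold, with nonTx replicate 1 far below the rest, and the log2 difference was 0.96 ± 0.53 (limma adjusted p = 0.438).

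The droplet, lipase and carrier genes had the widest spread of all roles, with a median SD of 1.15 on the log2 scale in nonTx and 0.86 in Tx. Pnpla3, a lipid droplet protein under the control of SREBP-1c and ChREBP, gave 0.297, 1.69, 2.72 and 2.05 in nonTx and 4.75, 1.41, 3.48 and 1.30 in Tx. The single array of nonTx replicate 1 made its nonTx range 9.16-fold, and the log2 difference of 0.86 ± 0.67 had an interval from -0.64 to 2.35. G0s2, an inhibitor of adipose triglyceride lipase, gave 17.5, 5.18, 5.58 and 2.55 in nonTx and 4.83, 5.81, 8.40 and 18.4 in Tx. One array of each group was high, and the log2 difference was 0.44 ± 0.56. Fabp5, a fatty acid-binding protein, gave 54.1, 72.9, 42.7 and 45.7 in nonTx and 85.7, 49.9, 65.6 and 98.2 in Tx, with a log2 difference of 0.46 ± 0.22 (limma adjusted p = 0.400).

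The members varied more among arrays of a group than genes in general. Their median SD on the log2 scale was 0.32 in nonTx and 0.37 in Tx, against 0.15 and 0.21 over all genes. The range inside the nonTx group was larger than the difference between the groups for 26 of 30 members, and the range inside the Tx group for 30 of 30. These counts were not made over all genes, so they do not set the members apart. A larger SD in Tx was seen for 21 members, or 70.0%, where it was 69.7% of all genes. The low and high values fell on certain arrays. Within nonTx, replicate 1 was the lowest array for 17 of 30 members (26.8% of all genes). Within Tx, replicate 3 was the highest for 17 members (26.9% of all genes) and replicate 2 the lowest for 17 (23.3% of all genes). The median deviation of the members from their means over the 8 arrays was -0.36, -0.11, 0.005 and -0.002 on nonTx replicates 1 to 4 and 0.07, -0.14, 0.38 and 0.07 on the Tx ones (log2 scale). The same median over all genes stayed between -0.04 and 0.07.

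**Figure D3:**
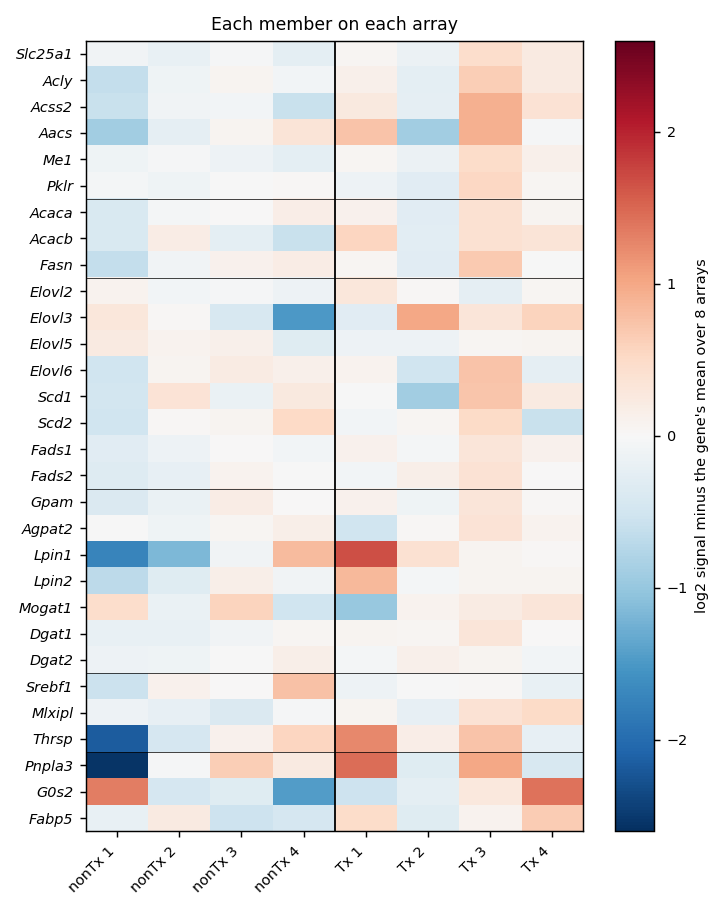
Log2 signal of each of 30 members (rows, grouped by role) on each of the 8 arrays (columns), as the difference from the gene's mean over the arrays, with red above and blue below. The column of nonTx replicate 1 is mostly blue and that of Tx replicate 3 mostly red, and rows such as Lpin1, Thrsp, Pnpla3 and G0s2 carry the strongest colours within both groups.

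The members' values were correlated with each other across the 8 arrays, and most pairs had a positive sign. Of 435 pairs of members, 318 had a positive Pearson correlation, with a median r of 0.38. None passed a Benjamini-Hochberg adjusted p of 0.05 (exact permutation tests, two-sided, with 87 pairs below 0.05 unadjusted and a smallest adjusted p of 0.0701). These figures were not made for pairs of genes in general, so they do not set the members apart. Acaca and Fasn, the consecutive enzymes of chain synthesis, had r = 0.97 and Spearman's rho = 0.93 (exact adjusted p = 0.0701 and 0.162). Without nonTx replicate 1 and Tx replicate 3, the arrays farthest from the median of Acaca, r was 0.93. Acss2 and Slc25a1 of the supply group had r = 0.92 and rho = 0.90 (exact adjusted p = 0.0701 and 0.197), and r = 0.75 without nonTx replicate 4 and Tx replicate 3. Thrsp and Pnpla3 had r = 0.95 and rho = 0.83 (exact adjusted p = 0.0701 and 0.197), and r = 0.67 without nonTx replicate 1 and Tx replicate 1. The arrays share 1 slide and 1 scan, and nonTx lay on one row of the slide and Tx on the other, so slide row and group cannot be told apart.

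Promoter sequences are shown for the pairs Thrsp with Pnpla3 and Acss2 with Slc25a1, whose profiles over the arrays were among the closest. RefSeq's table of promoters (GRCm38.p6) held 23 of the 30 members with 32 start sites, and the 250 bases before each start were searched on both strands for CCAAT, the box bound by NF-Y, and for CACGTG, an E-box of the kind bound by clock and carbohydrate-response factors. CCAAT stood in 14 of 32 member windows and in 33.8% of all 32851 windows of that length, and CACGTG in 4 of 32 and in 6.02%. By gene, 13 of the 23 members had CCAAT. Every gene shown has it, but members of other close pairs had none. These were Aacs (r = 0.95 with Acaca), Acly (r = 0.97 with Fads1) and Elovl6 (r = 0.93 with Fasn). The SREBP element TCACNCCAC was searched too and stood in 1 of 32 member windows (Mlxipl) and in 1.05% of all, and the TATA box TATAAA in 2 of 32 (Acacb and Pklr) and in 12.4%. In the sequences, which run 5′ to 3′ on the gene's strand, capitals mark CCAAT and CACGTG in either orientation, so that ATTGG is CCAAT on the other strand. A match in letters is a description and not a shown binding site.
The Thrsp window is chr7:97417551-97417800 (minus strand), with CCAAT beginning 79 and 52 bases before the start.
Thrsp: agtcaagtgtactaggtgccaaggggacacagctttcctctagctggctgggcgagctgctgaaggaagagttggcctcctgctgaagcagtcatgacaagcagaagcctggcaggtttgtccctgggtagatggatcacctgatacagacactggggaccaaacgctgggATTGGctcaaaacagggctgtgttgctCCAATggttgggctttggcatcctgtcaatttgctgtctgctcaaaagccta
The Pnpla3 stretch is chr15:84167566-84167775 (plus strand), which ends where the annotated gene begins, and it holds 1 CCAAT.
Pnpla3: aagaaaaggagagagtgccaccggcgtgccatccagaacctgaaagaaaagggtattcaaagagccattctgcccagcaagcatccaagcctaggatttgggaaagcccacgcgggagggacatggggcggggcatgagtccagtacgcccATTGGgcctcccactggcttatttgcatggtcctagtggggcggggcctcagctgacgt
The Acss2 window is chr2:155517793-155518042 (plus strand), with CCAAT 73 bases before the start.
Acss2: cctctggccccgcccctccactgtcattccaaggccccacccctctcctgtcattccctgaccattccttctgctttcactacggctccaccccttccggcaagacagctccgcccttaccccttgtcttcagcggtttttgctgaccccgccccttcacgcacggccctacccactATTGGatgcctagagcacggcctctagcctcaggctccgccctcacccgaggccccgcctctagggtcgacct
The Slc25a1 window is chr16:17928220-17928469 (minus strand), with CACGTG 239 and CCAAT 125 bases before the start.
Slc25a1: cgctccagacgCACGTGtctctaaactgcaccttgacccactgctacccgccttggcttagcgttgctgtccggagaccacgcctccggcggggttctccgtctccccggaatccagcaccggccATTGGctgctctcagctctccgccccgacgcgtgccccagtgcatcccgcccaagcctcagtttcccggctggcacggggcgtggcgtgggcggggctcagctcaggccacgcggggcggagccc

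The members were set beside clock and fasting genes, a comparison chosen after their values had been seen. The nonTx range was over 5-fold for 4 members, Pnpla3, G0s2, Thrsp and Lpin1. Per1, a clock gene with a strong daily rhythm in liver, gave 1.13, 4.76, 9.86 and 11.6 in nonTx and 23.0, 8.31, 3.63 and 2.75 in Tx, so it was lowest on nonTx replicate 1 and highest on Tx replicate 1. Pnpla3, Thrsp and Lpin1 had their lowest and highest values on the same pair of arrays, as had Lpin2 with a smaller nonTx range of 1.79-fold. G0s2 did not: it was high on nonTx replicate 1 and Tx replicate 4 and lowest on nonTx replicate 4. Its r with Per1 was -0.82 and rho -0.88 (exact permutation, adjusted p = 0.473 and 0.415 over 630 pairs of members with clock or fasting genes), and r = -0.85 without nonTx replicate 1 and Tx replicate 1. Over the 8 arrays Lpin1 had r = 0.84 and rho = 0.74 with Per1 (exact permutation, adjusted p = 0.441 and 0.722 over those pairs), and r = 0.43 without that pair of arrays, on which the relation rests. Clock ran from 3.32 on Tx replicate 1 to 6.17 on nonTx replicate 1. Lpin1 had r = -0.95 and rho = -0.90 with Clock (exact adjusted p = 0.203 and 0.415), and r = -0.83 without those arrays. Not every clock gene ran as Per1 did. Dbp, Tef and Nr1d2 were highest on Tx replicate 1 but lowest on nonTx replicate 2. Per3 was lowest on Tx replicate 3, and Nr1d1 was lowest on Tx replicate 1 and highest on Tx replicate 4. Srebf1 had its closest relation to Fgf21, a hepatokine of fasting, at r = -0.89 and rho = -0.95 (exact adjusted p = 0.141 and 0.415). Without nonTx replicates 1 and 4 it was r = -0.91. Fgf21 was picked as the closest of 21 genes and does not stand for the fasting list. Pck1, also of that list, was lowest on nonTx replicate 1 (142), as Srebf1 was. Of 12 fasting genes 8 were higher and 4 lower in Tx. Only G6pc was without overlap, lower in Tx (log2 difference -0.62 ± 0.14, limma adjusted p = 0.248). None of the 630 pairs passed the adjusted threshold and 56 lay below 0.05 unadjusted. Neither the hour of sampling nor feeding is given in the labels, and their part in the spread was not tested.

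**Figure D4:**
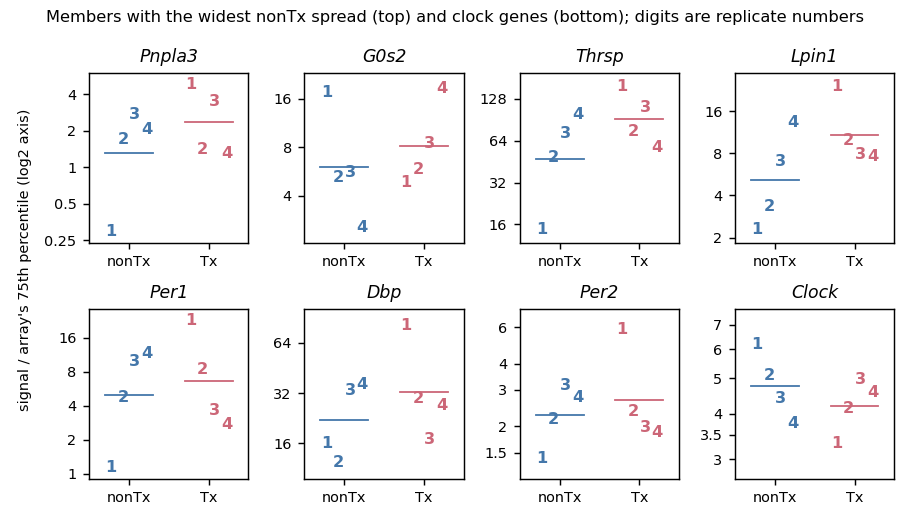
Relative signal (multiple of the array's 75th percentile, log2 axis) of the 4 members with a nonTx range over 5-fold (top) and 4 clock genes (bottom) in nonTx and Tx, where each digit is the replicate number of an array and each bar is the group's geometric mean. In Pnpla3, Thrsp, Lpin1, Per1 and Per2 nonTx replicate 1 is the lowest and Tx replicate 1 the highest array, and Clock runs the opposite way. Dbp is highest on Tx replicate 1 but lowest on nonTx replicate 2, and G0s2 is highest on Tx replicate 4 and nonTx replicate 1.

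Probes of a gene did not always point the same way. Of the 70 member probes 66 passed the filter, 50 were higher and 16 lower in Tx, and the smallest adjusted p among them was 0.283 (limma). Over all tested probes 52.6% were higher. At an unadjusted p below 0.05, 11 of the member probes were higher and 4 lower, the lower ones being 3 of Lpin2 and 1 of Mlxipl. Over all tested probes 4085 of 30955 had such a p, in either direction. Of the 18 members with over 1 probe, 5 had probes of opposite sign that differed by over 0.3 on the log2 scale, namely Acss2, Fads1, Fads2, Lpin2 and Mlxipl. Lpin2 had 7 tested probes, of which 3 were higher (log2 differences 0.47, 0.44 and 0.26) and 4 lower (-0.66, -0.70, -1.09 and -1.23). For the last of these, the signals were 0.956, 1.31, 1.93 and 1.78 in nonTx and 1.69, 0.584, 0.398 and 0.363 in Tx, so that Tx replicate 1 lay inside the nonTx range and the other 3 Tx arrays below it. The Lpin2 probe at -0.66 was above background on 3 nonTx arrays and 1 Tx array. One of the lower Lpin2 probes had all Tx arrays (0.0864 to 0.164) below all nonTx arrays (0.178 to 0.263). Mlxipl also had a probe with all Tx arrays (2.27 to 4.28) below all nonTx arrays (4.53 to 5.57), a log2 difference of -0.55 ± 0.18 (limma adjusted p = 0.313), where its brightest probe was at 0.37. When the probes of a gene were averaged, the log2 difference of Lpin2 was -0.36 and that of Mlxipl -0.07.

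**Figure D5:**
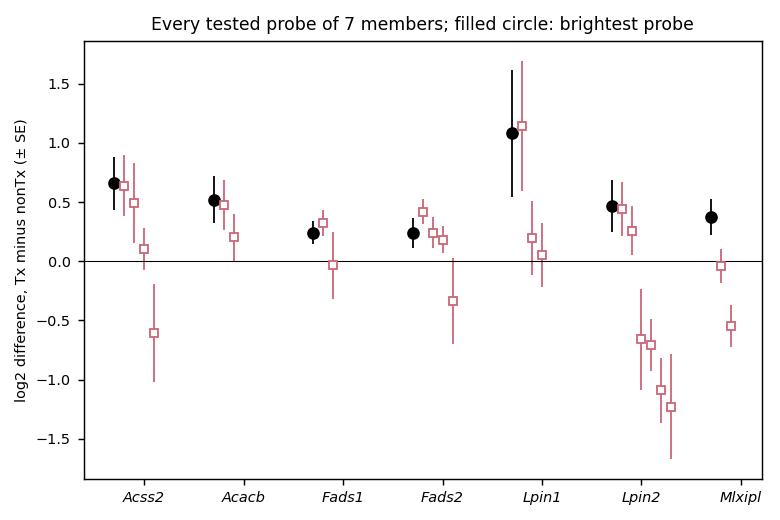
Log2 difference between Tx and nonTx (y axis, ± SE of the limma fit) of every tested probe of 7 members (x axis), with the brightest probe as a filled circle and the others as open squares. The probes of Lpin2 range from -1.23 to 0.47 and those of Mlxipl from -0.55 to 0.37, while the 3 probes of Acacb are all above 0.

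The probes of the desaturases also differed among themselves. A second Fads2 probe had signals of 4.25, 4.47, 5.06 and 4.02 in nonTx and 6.92, 5.59, 5.45 and 5.85 in Tx, with no overlap, and a log2 difference of 0.42 ± 0.11 (limma adjusted p = 0.283). A second Fads1 probe also did not overlap (0.359 to 0.443 in nonTx and 0.474 to 0.537 in Tx), with a log2 difference of 0.32 ± 0.11, and the third was at -0.04 ± 0.28. The Fads2 probe of opposite sign gave 3.44 to 12.01 in Tx and 4.70 to 8.64 in nonTx, its highest and lowest arrays were both Tx, and its log2 difference was -0.34 ± 0.37. In Acss2, 4 of 5 probes were higher in Tx, and the lower one (-0.60 ± 0.42) was above background on 3 of the 4 Tx arrays. One of the higher probes (0.49 ± 0.34) was above background on 2 of the 4 nonTx and 3 of the 4 Tx arrays. Lpin1 had 4 probes, all higher in Tx, at 1.08, 1.14, 0.20 and 0.05.

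Other genes of the pathway showed smaller shifts and less spread than the members. Of 90 listed, 88 were tested, 62 of these were higher in Tx, the median log2 difference was 0.10, and none passed the adjusted threshold (smallest limma adjusted p 0.313). Their median SD was 0.15 in nonTx and 0.20 in Tx, near that of all genes. At an unadjusted p below 0.05 there were 8 higher and 5 lower of the 88, near the shares of all genes given above (8.65% and 5.25%). In 3 the Tx arrays were all above and in 3 all below the nonTx arrays, also near the shares of all genes (5.11% and 2.94%). Among 17 genes of acyl-CoA handling and elongation 14 were higher, and 2 of 3 dehydratases of the elongation cycle were without overlap. Hacd1 was at 16.0 to 17.8 in nonTx and 18.4 to 21.3 in Tx (log2 difference 0.25 ± 0.08), and Hacd2 at 21.9 to 25.7 and 26.0 to 30.9 (0.25 ± 0.09), while the groups of Hacd3 overlapped (0.08 ± 0.11). The lowest value among the 88 genes was that of the desaturase Scd3, at a log2 difference of -0.72 ± 0.33 with overlapping groups (limma adjusted p = 0.384); it is named because it was the lowest. Of 17 droplet and lipolysis genes 14 were higher, Pnpla2, the adipose triglyceride lipase that G0s2 inhibits, at 11.9 to 14.0 in nonTx and 14.4 to 16.5 in Tx (0.22 ± 0.08). Mttp, which loads triglyceride onto lipoproteins, had a log2 difference of 0.24 ± 0.11.

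The lists of glucose supply and of regulators held genes of either direction. Of 16 genes of glucose supply and NADPH 11 were higher. Slc2a2, the liver glucose transporter GLUT2, was at 4.37 to 4.77 in nonTx and 3.60 to 4.18 in Tx (log2 difference -0.25 ± 0.08), and Idh1, a cytosolic source of NADPH, had a log2 difference of 0.34 ± 0.11. Of 25 other regulators 14 were higher. Irs2, an insulin receptor substrate that SREBP-1c represses, was at 5.48 to 7.99 in nonTx and 4.21 to 5.63 in Tx (log2 difference -0.43 ± 0.14), and Sp1, a general transcription factor, at 4.64 to 5.23 and 3.85 to 4.37 (-0.24 ± 0.08). In glycerolipid assembly 9 of 13 were higher, among them the acyltransferases Agpat3 (log2 difference 0.24 ± 0.09) and Agpat5 (0.22 ± 0.10).

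The tissue label was checked on marker genes. All 10 hepatocyte markers were above background on all 8 arrays, with a summed relative signal of 3880.1 to 4226 in nonTx and 3590 to 4333 in Tx. Of these, 7 were higher and 3 lower in Tx. Only Ttr was without overlap, at 317 to 352 in nonTx and 249 to 269 in Tx (log2 difference -0.37 ± 0.07, limma adjusted p = 0.185). Of 8 adipocyte markers Adipoq, Retn, Cfd, Plin1 and Cidea were not above background on any array, while Lep, Fabp4 and Car3 were on all 8. Lep was at 0.915 to 1.16 in nonTx and 1.01 to 1.38 in Tx. Fabp4, which macrophages and endothelium also express, was at 2.76 to 3.71 in nonTx and 3.95 to 4.55 in Tx. The sum of the adipocyte list, mostly Car3, was 202 to 313 in nonTx and 219 to 340 in Tx. All 9 Kupffer cell markers were above background, with sums of 116 to 154 in nonTx and 114 to 172 in Tx. Of 6 T cell markers 4 were lower in Tx, with log2 differences of -1.17 for Cd3d, -0.84 for Cd3g, -0.46 for Cd8a and -0.45 for Lck, and 2 were higher, at 0.13 for Cd3e and 0.32 for Cd4 (smallest limma adjusted p 0.0577, for Cd3d). Cd8a was above background on 3 of the 8 arrays and the other 5 markers on all 8. The sum of the T cell list was 20.8 to 22.8 in nonTx and 20.1 to 33.4 in Tx, mostly Cd4. Of 6 exocrine pancreas markers measured 3 were above background on every array, Cpa1 and Pnlip on 1 array each and Prss1 on none. The sums, mostly Cela1, were 32.6 to 54.5 in nonTx and 53.8 to 78.0 in Tx. Cpa1 and Pnlip were highest on nonTx replicate 3, at 0.565 and 0.174. On the other arrays they reached at most 0.0488 and 0.0368. The part of other cells in the members' values was not tested. Between 51.1% and 57.1% of probes were well above background on each array, the pairwise correlations of arrays were 0.977 to 0.994, and the members' deposited signals ran from 55.6 to 75410 with none saturated.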

How the data were processed

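Liver RNA was measured on Agilent one-colour arrays. Per the file headers the arrays were read with Feature Extraction 10.7.1.1, while the submitters' processing notes name version 9.1. The deposited table holds intensity (processed signal, background-subtracted) and log2 values that the authors scaled. The deposited intensity equalled the scanner signal within 1% for 99.98% of values. Here log2 signal minus each array's 75th percentile was used, spots of a probe were averaged after outlier spots were left out, and a probe was tested where 3 or more of a group's 4 arrays flagged it as well above background (30955 of 56605) with limma 3.58.1 in R 4.3.3, variance trend included, and Benjamini-Hochberg adjustment. The fit was tested on simulated data with independent noise for each probe and array. Shifts that many genes share on an array, as seen among the members, were not simulated. The brightest tested probe stood for a gene. All 30 members are named, and of each list of other pathway genes the 2 with the smallest p. Members and lists were chosen with earlier results of these data known. Alternatives were normexp (offset 50), quantile and median scaling, the authors' log2 values, other filters, outlier spots kept, no trend, averaged probes, the replicate number as a block and each array left out, with no scaling added after the data were seen. Same-numbered arrays did not deviate together (correlations -0.01 to 0.10), so numbers were not treated as pairs. The number of arrays, 8, limits the precision.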

Additional observations from a re-analysis of the deposited data

Results flagged for a closer look

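In 80 groups of 4 arrays, 40 genes in both conditions, the gap of the extreme array to its neighbour was compared with the group's range by Dixon's test, and 3 exceeded the 95% critical value, where chance alone gives about 1 in 20. Lpin2 was high on Tx replicate 1, at a relative signal of 57.5 against 31.0 to 33.8 on the other Tx arrays. Mttp, the triglyceride transfer protein of lipoprotein assembly, was low on nonTx replicate 4, at 15.1 against 18.4 to 18.6. Mttp was also low on Tx replicate 2, at 17.8 against 21.7 to 22.5.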

How the results depend on the processing

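The median log2 difference of the members stayed positive under every alternative run, from 0.08 with no scaling (all probes shifted by -0.14) and 0.11 with quantile normalization to 0.34 with median scaling (all probes shifted by 0.12), and from 0.15 to 0.33 with 1 array left out. Members higher in Tx numbered 22 to 28 with 1 array left out. Probes past the adjusted threshold were 0, but 2 with normexp, 6 with median scaling, 1 with the authors' log2 values, 1 with no variance trend, 1 with no scaling and 1 with the replicate block, and 0 to 188 with 1 array left out (188 without Tx replicate 2, 12 without Tx replicate 3). No member passed under any of them. The replicate number as a block changed no call on a member, and under it the members' median stayed at 0.24. Of the single-member values under other settings 311 kept their sign and 19, in 12 members, did not. With normexp these were Elovl6 (-0.061), Scd1 (-0.024) and Scd2 (0.031). Under quantile normalization they were Elovl2 (-0.083), Elovl6 (-0.021), Scd1 (-0.16), Gpam (-0.0032) and Dgat2 (-0.11), and under median scaling Elovl5 (0.033), Scd2 (0.054) and Agpat2 (0.073). Averaged probes gave Lpin2 (-0.36) and Mlxipl (-0.072). With no scaling they were Pklr (-0.076), Acaca (-0.026), Elovl2 (-0.083), Elovl6 (-0.10), Scd1 (-0.14) and Dgat2 (-0.11). With 1 array left out the ranges that crossed 0 were -0.083 to 0.19 for Pklr, -0.0086 to 0.16 for Elovl2, -0.19 to 0.23 for Elovl6, -0.22 to 0.32 for Scd1, -0.23 to 0.14 for Scd2, -0.15 to 0.14 for Agpat2, -0.38 to 0.12 for Mogat1 and -0.37 to 0.074 for Srebf1. The causes of these sign changes were not tested. A slide or scan block was not run because all arrays share 1 slide and 1 scan. By their brightest probe the members were above background on all 8 arrays. Some of these signals were low before scaling, with Elovl3 at 55.6 on nonTx replicate 4 and Mogat1 at 76.7 on Tx replicate 1. Beyond the normexp alternative, the part of background in the members' values was not tested.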
